A study of Mus musculus with 8 samples.

Results

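The insulin-like growth factor (IGF) system was followed in islet RNA through 10 genes, the ligands Igf1 and Igf2, the receptors Igf1r and Insr, and the binding proteins Igfbp2, Igfbp3, Igfbp4, Igfbp5, Igfbp6 and Igfbp7. They were chosen by gene symbol, and all 10 were among the 32531 gene symbols of the count table. RNA-seq was performed on islets from 4 control and 4 β-tetO-NICD mice, each a library of its own. All 8 mice carried RIP-Cre, in which an Ins2 promoter drives Cre, together with Rosa26-rtTA, and all received doxycycline (Dox) for 8 weeks. Only the β-tetO-NICD mice carried tetO_NICD, from which Dox induces the intracellular domain of Notch1 (NICD), its signalling fragment, in β cells with Cre. Both groups were of mixed C57BL/6J, 129X1/SvJ and BALB/c background, and the labels give no age.

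IGF-1 and IGF-2 are small secreted proteins related to insulin. They signal through the IGF-1 receptor, and to differing degrees through the insulin receptor, to promote growth, survival and metabolism, and in β cells both receptors contribute to the control of secretion and of compensatory growth. The IGF binding proteins hold the ligands outside the cell, and each can limit or prolong their access to receptors, while proteases release the ligands again.

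Total counts per library ran from 22430941 to 25950164 (controls) and from 21701223 to 26413146 (β-tetO-NICD). Levels are given as CPM, the usual depth-scaled count, after scaling by edgeR's TMM factors. A floor of 3 counts was at most 0.151 CPM in any library and covers counting error only. Notch1, which checks the labels, lay between 41.6 and 64.9 CPM in controls and between 573 and 1321 CPM in NICD libraries. Libraries of the β-tetO-NICD group (NICD libraries) are numbered 1, 2, 4 and 5 as in the table, since columns 4 and 5 could not be assigned to a particular mouse. Islet identity was checked by hormone and transcription factor markers, and the summed level of 9 β cell markers was 156583 to 197308 CPM in controls and 71959 to 171743 CPM in β-tetO-NICD islets, while 5 α cell markers summed to 12064 to 43146 and 55492 to 70472 CPM. The β cell sum is mostly Ins1, Ins2 and Iapp. Of the 9 markers, G6pc2, Slc2a2 and Ucn3 fell (log2 fold changes of −2.41, −1.80 and −1.11). The others did not pass, with Mafa, Ins1, Iapp and Ins2 at −0.86, −0.65, −0.59 and −0.56 and Pdx1 and Nkx6-1 at 0.043 and 0.039. In whole islets, fewer cells of a type and less RNA per cell cannot be told apart.

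Features of the libraries crossed the groups. Across 14655 genes with an annotated length, longer transcripts ranked higher than in the mean of the 8 libraries (a positive Spearman's rho of deviation with length) in controls 1, 2 and 4 and in NICD library 1 (0.418 to 0.498), and lower in control 3 and NICD libraries 2, 4 and 5 (−0.522 to −0.175). Genes are not independent, and these values describe the libraries only. The median log2 fold change (β-tetO-NICD over control) was 0.45 in genes with transcripts under 2 kb and −0.53 in the 865 genes over 8 kb. Per the study's methods, expression was measured in islets of male mice. The Y-linked gene Eif2s3y had 1300 to 1527 counts in 3 libraries (controls 2 and 4 and NICD library 5) and no more than 1 in any other.

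Of the 10 genes, 9 met the minimum of 10 counts in 4 libraries and entered edgeR's quasi-likelihood test, with p values adjusted by the Benjamini-Hochberg method over all 15082 genes tested. Igfbp5 fell and Igfbp4 rose, and the other 7 did not pass an adjusted p of 0.05. Over all genes tested, 6.76% passed (4.19% higher and 2.57% lower). Igfbp2, under the minimum, was at or near 0 counts in controls and present in every NICD library. An unadjusted p under 0.05 was found for 6 of the 9 and for 31.6% of all genes. The median log2 fold change of the 9 tested genes was 0.39, and 0.00071 over all tested genes. The ranges of the groups did not overlap for Igfbp4, Igfbp5 and Igf2 among the tested genes, and for Igfbp2, where this held for 16.1% of all genes tested.

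Promoter sequences are shown for the 3 genes on which the results turn, the binding protein genes Igfbp5, Igfbp4 and Igfbp2. Each is the 250 bases before the RefSeq start site (GRCm38.p6), written 5′ to 3′ on the strand of the gene. Igfbp5 lies on the minus strand (chr1:72874866-72875115), Igfbp4 on the plus strand (chr11:99040994-99041243) and Igfbp2 on the plus strand (chr1:72824230-72824479, the first of 2 RefSeq windows of the gene). Capitals mark matches, on either strand, to CACGNG or CACNAG, letters bound by Hes and Hey repressors, which are classical Notch targets, or to TGGGAA, the core letters bound by RBPJ, the nuclear partner of NICD.
Igfbp5: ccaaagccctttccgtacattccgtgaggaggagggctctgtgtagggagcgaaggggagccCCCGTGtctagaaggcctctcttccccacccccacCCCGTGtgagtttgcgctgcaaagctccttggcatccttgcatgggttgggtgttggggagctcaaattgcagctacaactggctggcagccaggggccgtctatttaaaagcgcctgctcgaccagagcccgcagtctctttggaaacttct
Igfbp4: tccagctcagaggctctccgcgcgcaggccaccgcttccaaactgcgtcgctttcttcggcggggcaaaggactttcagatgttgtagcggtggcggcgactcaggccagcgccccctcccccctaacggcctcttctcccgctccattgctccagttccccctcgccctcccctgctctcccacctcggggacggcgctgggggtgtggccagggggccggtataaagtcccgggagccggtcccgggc
Igfbp2: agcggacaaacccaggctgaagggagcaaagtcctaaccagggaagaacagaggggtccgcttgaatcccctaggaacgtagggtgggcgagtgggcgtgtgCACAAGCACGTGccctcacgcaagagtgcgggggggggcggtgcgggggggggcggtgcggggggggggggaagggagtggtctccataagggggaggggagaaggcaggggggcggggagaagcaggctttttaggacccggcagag

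The Igfbp5 window held 2 matches to CACGNG, beginning 188 and 153 bases before the start, and the Igfbp4 window held none to any of the 3 motifs. The Igfbp2 window held CACAAG beside CACGTG, which reads the same on both strands. A sequence CACGAG would match both CACGNG and CACNAG, and none was marked here. Of 32851 RefSeq windows of this length, 23.5% held CACGNG, 36.7% CACNAG and 21.6% TGGGAA, so such matches are common. Windows were found for 9 of the 10 genes, Insr having none, and among these 9 TGGGAA occurred only in windows of Igf1 and Igf2. These matches are descriptions of letters and not of binding.

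Igfbp5 encodes a secreted binding protein that also binds extracellular matrix. It lies on chromosome 1 from 72857932 to 72874884 (GRCm38, GENCODE M21, minus strand, 4 exons in the longest transcript of 6006 bases). Controls 1 to 4 had 187, 258, 128 and 352 CPM. The NICD libraries 1, 2, 4 and 5 had 64.1, 44.0, 56.8 and 31.1 CPM. The lowest control was thus above the highest NICD library, and the controls varied more among themselves. The means were 231 ± 96.3 CPM (± SD, 4 libraries) and 49.0 ± 14.5 CPM (± SD, 4 libraries), a log2 fold change of −2.24 (SE of 0.33, 95% interval −2.98 to −1.49, edgeR adjusted p = 0.00512), or 4.72-fold lower in β-tetO-NICD islets.

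Igfbp5 passed the threshold in all 8 fits with 1 library omitted, with log2 fold changes between −2.44 and −1.96. With an offset for transcript length its log2 fold change was −1.90 (edgeR adjusted p = 0.00194). Among the 4 libraries with a positive length trend (3 controls, 1 β-tetO-NICD) the log2 difference was −2.002. Among the 4 with a negative trend (1 control, 3 β-tetO-NICD) it was −1.59. In the 5 libraries without Eif2s3y counts (2 controls, 3 β-tetO-NICD), the log2 fold change was −1.53 and did not pass (edgeR adjusted p = 0.0588), where 116 of all genes passed. The controls with Eif2s3y counts, numbers 2 and 4, had the highest Igfbp5 of that group, and the NICD library with them had the lowest. The log2 difference was −3.27 among the 3 libraries with Eif2s3y counts (2 controls, 1 β-tetO-NICD) and −1.51 among the other 5.

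Igfbp4 encodes a secreted protein that chiefly restrains IGF action and is cleaved by the protease encoded by Pappa. It lies on chromosome 11 from 99041244 to 99054392 (plus strand, longest transcript 3831 bases). The 4 controls had 16.2, 36.1, 22.2 and 25.1 CPM. Libraries 1, 2, 4 and 5 of the β-tetO-NICD group had 36.4, 62.9, 66.4 and 78.6 CPM. The gap between the groups was narrow, since NICD library 1 was just above control 2, while the other 3 were well above it. Igfbp4 rose from a mean of 24.9 ± 8.33 CPM (± SD, 4 libraries) to 61.1 ± 17.8 CPM (± SD, 4 libraries), a log2 fold change of 1.29 (SE of 0.28, 95% interval 0.66 to 1.93, edgeR adjusted p = 0.0278), or 2.45-fold.

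Whether this rise passed depended on the libraries included. The adjusted p of Igfbp4 stayed under 0.05 in only 2 of the 8 fits with 1 library omitted, those without control 2 and without NICD library 1. It was at most 0.0855 in the others, with log2 fold changes between 1.15 and 1.53 over all 8. In the fits where Igfbp4 did not pass, 319 to 866 of all genes passed, beside 1020 in the main fit. Without control 2, where it passed, 503 did. With the length offset the log2 fold change of Igfbp4 was 1.40 (edgeR adjusted p = 0.0184). The log2 difference was 0.57 among the libraries with a positive length trend (3 controls, 1 β-tetO-NICD). It was 1.63 among those with a negative one (1 control, 3 β-tetO-NICD), so each value rests on 1 library of one group. With the sign of the length trend as a covariate, an alternative chosen after the values were seen, it was 1.07 and did not pass (edgeR adjusted p = 0.126). Only the 5 libraries without Eif2s3y counts gave 1.52 (edgeR adjusted p = 0.107), where 116 of all genes passed.

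Markers of other cell types were measured beside Igfbp4 and Igfbp5. The 5 α cell markers and 8 macrophage markers had summed levels that did not overlap between the groups, with 153 to 206 CPM for macrophages in controls and 224 to 325 CPM in β-tetO-NICD islets. The α cell marker Irx2 was among those that rose. Of the 8 macrophage markers only C1qa passed, with means of 77.6 and 150 CPM that made up most of the difference in the sum, while the other 7 had log2 fold changes between −0.38 (Adgre1) and 0.75 (C1qb), 5 of them above 0, and did not pass. The summed level of 8 endothelial markers was 506 to 815 CPM in controls and 670 to 790 CPM in β-tetO-NICD islets, and that of 10 stromal and pericyte markers 244 to 829 and 438 to 526 CPM, with no marker of either list passing the threshold. The 3 δ cell markers summed to 2434 to 6580 and 5075 to 14133 CPM, and Hhex of that list rose (log2 fold change 1.01, edgeR adjusted p = 0.0436). The 10 acinar markers summed to 38111 to 76293 CPM in controls and 31798 to 115615 CPM in β-tetO-NICD islets, none passing, and were highest in NICD library 1, which had the lowest Igfbp4 and the highest Igfbp5 of its group. With an acinar score as a covariate Igfbp4 was at 1.45 and Igfbp5 at −2.24 (edgeR adjusted p = 0.00844 and 0.0103). No marker of any list was at 0 in all libraries. Apart from the acinar score, the part of these cells in the changes of Igfbp4 and Igfbp5 was not tested.

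Igfbp2 encodes a secreted binding protein with a preference for IGF-2, and adjoins Igfbp5 on chromosome 1 (72824503 to 72852474, plus strand), the ends of the genes facing each other 5457 bases apart. Control 1 had 1 count and controls 2 to 4 had 0. The NICD libraries 1, 2, 4 and 5 had 7, 8, 30 and 55 counts, the last corresponding to 2.77 CPM. Every NICD library was thus above the floor and every control below it, although the level stayed low and was uneven within the group. Summed over libraries, 100 counts stood against 1, a ratio of 101 after division by the summed scaled library totals (exact 95% interval 17.8 to 4046, counting error only). Without NICD library 5, 45 counts against 1 gave 57.9 (9.87 to 2337), and without control 1 no control count remained. No p is given, since Igfbp2 was under the minimum and a fit without one would be chosen on these values.

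**Figure D1:**
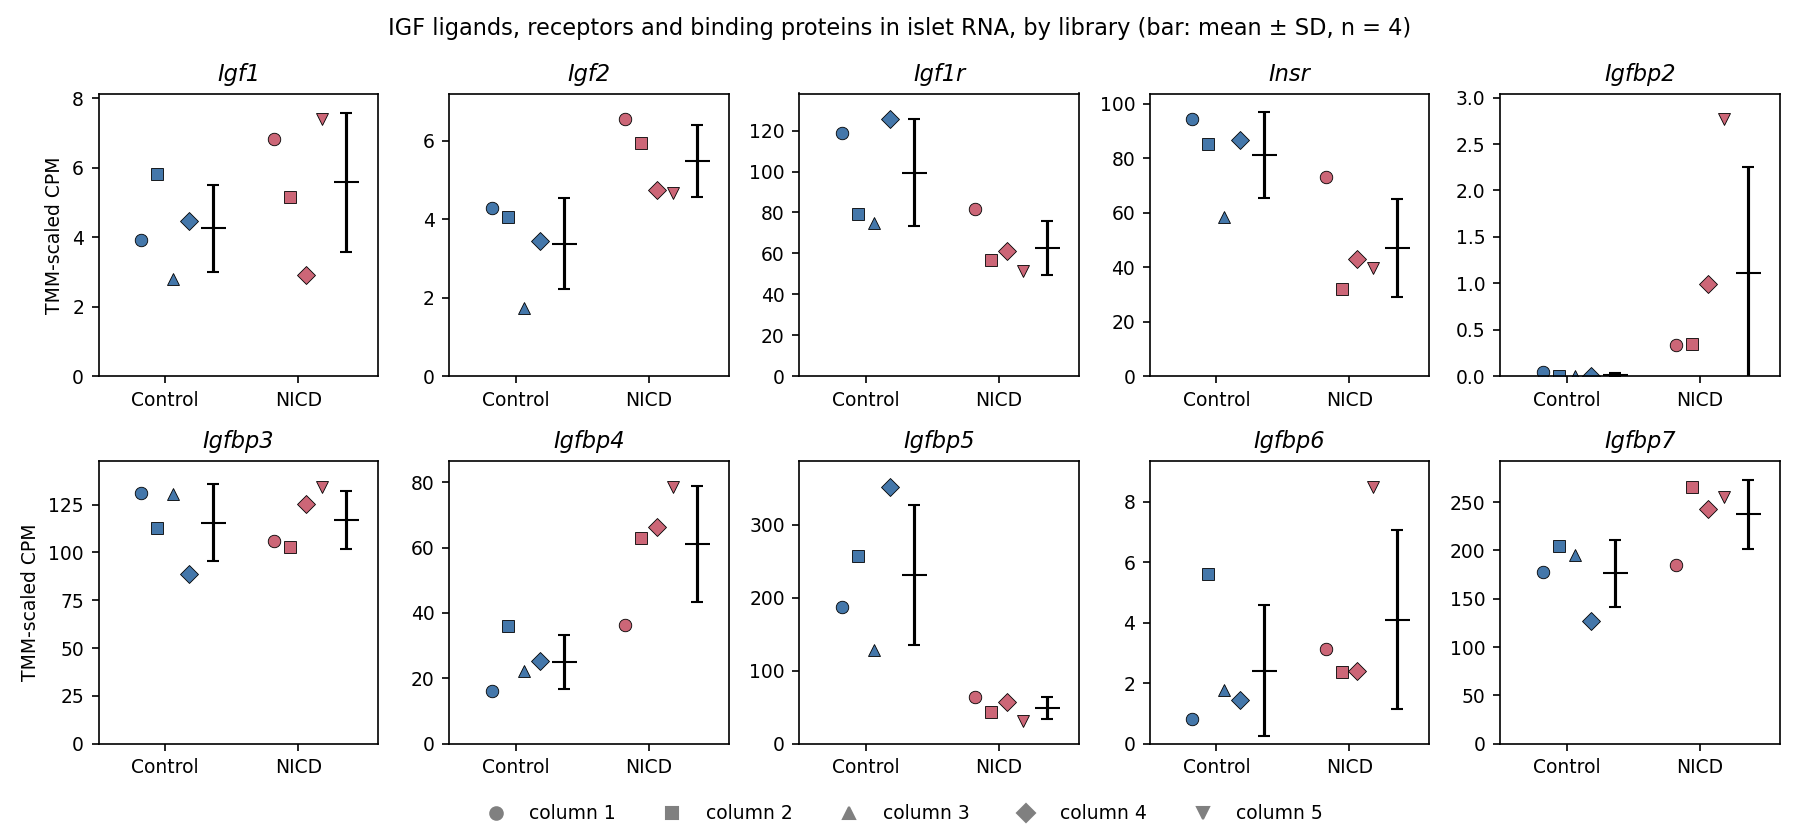
TMM-scaled CPM of the 10 genes in each library, with controls in blue, β-tetO-NICD (NICD) in red, the symbol giving the column number, and the mean ± SD (n = 4) beside the points. Each vertical axis starts at 0 and has its own scale, and the error bar of Igfbp2 is cut at 0. The groups are apart for Igfbp5 and Igfbp2 and narrowly for Igfbp4 and Igf2, and overlap for the other 6 genes.

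The remaining binding proteins included the most abundant ones. Igfbp7, which encodes a matrix-associated protein with low affinity for IGFs (chromosome 5, 77349240 to 77408041, longest transcript 1200 bases), had 178, 205, 195 and 127 CPM in controls. In NICD libraries 1, 2, 4 and 5 it had 185, 266, 243 and 255 CPM. Libraries 2, 4 and 5 were above every control, and library 1 lay within their range. The log2 fold change was 0.43 (SE of 0.19, 95% interval 0.0034 to 0.86, edgeR adjusted p = 0.156). Without NICD library 1 it was 0.53 and passed (edgeR adjusted p = 0.0469), where 4954 of 14902 tested genes passed, beside 1020 of 15082 in the main fit. With the length offset it was −0.044 (edgeR adjusted p = 0.881). The median of all tested genes with transcripts under 2 kb was 0.45, alike in size to the unadjusted value of Igfbp7. On the annotation, Igfbp7 overlaps the protein-coding gene Polr2b and the antisense gene Gm34648, both on the other strand.

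Igfbp3 encodes the main carrier of circulating IGFs (chromosome 11, 7206086 to 7213923). Its levels were 131, 113, 130 and 88.5 CPM in controls 1 to 4. They were 106, 103, 125 and 134 CPM in NICD libraries 1, 2, 4 and 5. The ranges overlapped almost fully, and the means of 116 ± 19.97 and 117 ± 15.2 CPM (± SD, 4 libraries per group) gave a log2 fold change of 0.018 (95% interval −0.36 to 0.40, edgeR adjusted p = 0.951). Its sign was not stable and turned negative in 7 of 22 alternatives.

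Igfbp6, whose product prefers IGF-2 (chromosome 15, 102144362 to 102149511), was a low-level gene with large differences within groups. Controls had 0.830, 5.61, 1.78 and 1.46 CPM, and NICD libraries 1, 2, 4 and 5 had 3.13, 2.36, 2.39 and 8.50 CPM. The spread in each group came from a single high library, control 2 and NICD library 5. Control 2 also had the highest summed stromal and pericyte markers (829 CPM), and NICD library 5 the highest of its group (526 CPM). NICD library 2 had a similar sum (511 CPM) with the lowest Igfbp6 of its group, and the part of those cells was not tested. The log2 fold change was 0.75 with a 95% interval of −0.64 to 2.14 (edgeR adjusted p = 0.410), and 0.12 with the length offset (edgeR adjusted p = 0.911). Without NICD library 5 the estimate was 0.12, and without control 2 it was 1.59 (edgeR adjusted p = 0.910 and 0.144).

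To compare levels between the binding proteins, CPM was divided by the length of the longest annotated transcript. On this scale of CPM per kb, Igfbp7 took 60.3% ± 6.72 (± SD, 4 libraries) of the summed binding protein level in controls and 71.9% ± 3.09 (± SD, 4 libraries) in β-tetO-NICD islets. Igfbp3 took 19.8% ± 2.97 and 17.7% ± 2.19 (± SD, 4 libraries per group). Igfbp5 took 16.4% ± 8.30 and 3.10% ± 1.33, and Igfbp4 2.68% ± 0.752 and 5.70% ± 1.04 (± SD, 4 libraries per group). In every control Igfbp5 ranked above Igfbp4, and in 3 of 4 NICD libraries it ranked below. The summed level itself was 242 ± 26.9 CPM per kb in controls and 275 ± 36.5 in β-tetO-NICD islets (± SD, 4 libraries per group), with overlapping ranges. These shares are descriptions of values already tested gene by gene. They were not adjusted for the length trend of the libraries, and with the length offset the log2 fold change of Igfbp7 was −0.044.

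**Figure D2:**
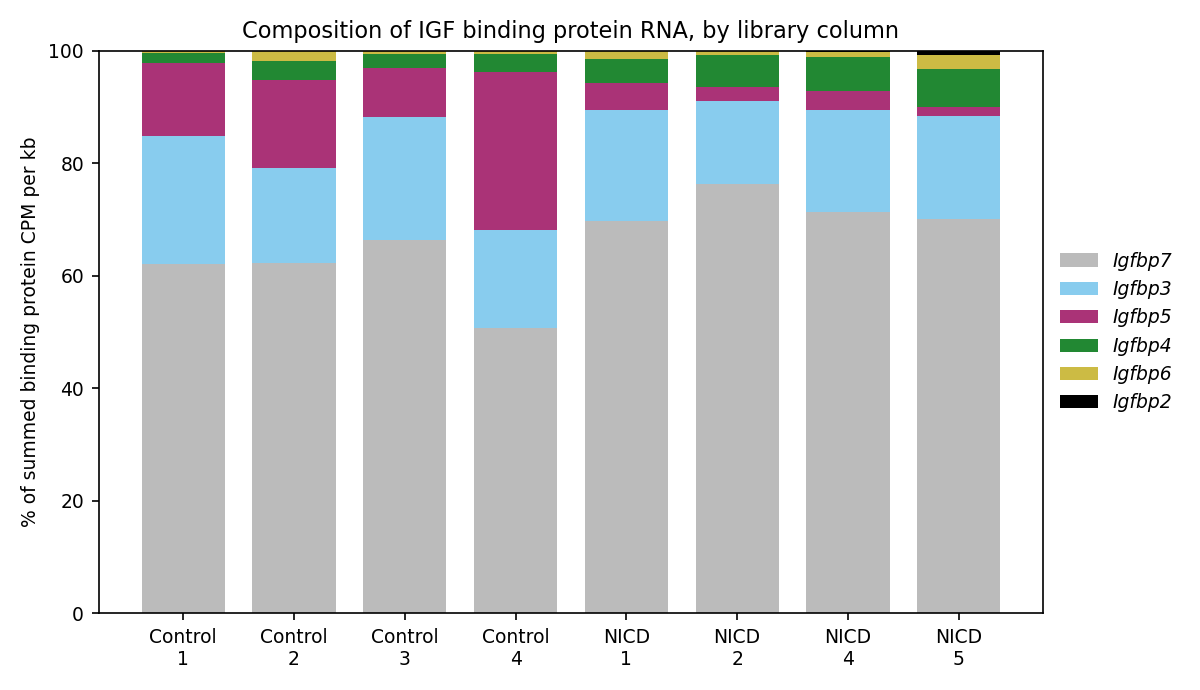
Share of each binding protein gene in the summed CPM per kb of the 6 binding proteins, one bar per library column, adding to 100%. Igfbp5 takes between 8.72% and 28.1% in controls and between 1.71% and 4.82% in β-tetO-NICD (NICD) libraries, and Igfbp4 between 1.78% and 3.43% and between 4.29% and 6.76%.

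The ratio of Igfbp4 to Igfbp5 counts within a library does not depend on scaling. It was 0.0867, 0.140, 0.173 and 0.0714 in controls 1 to 4, and 0.567, 1.43, 1.17 and 2.53 in NICD libraries 1, 2, 4 and 5. All NICD libraries were above all controls. The difference in mean log2 ratio was 3.49, and no test is given because the pair was chosen for its opposite changes.

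The ligand genes had low levels per kb in both groups. Igf2 (chromosome 7, 142650766 to 142666816, minus strand), an imprinted growth factor gene beside Ins2, had 4.29, 4.05, 1.74 and 3.45 CPM in controls and 6.55, 5.94, 4.74 and 4.68 CPM in NICD libraries 1, 2, 4 and 5. All of the latter were above all controls, by a small margin, and control 3 was the lowest library. The log2 fold change was 0.70 (SE of 0.29, 95% interval 0.041 to 1.35), which did not pass (edgeR adjusted p = 0.142). It was positive in all 22 alternatives run, between 0.48 and 1.13, and passed in none. On the annotation, Igf2 overlaps Gm49394 and Mir483 on its own strand and Igf2os on the other, none of which was analysed here, and whether counting used the strand of reads is not given in the sources used here, so its counts are uncertain to that extent.

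Igf1 (chromosome 10, 87858265 to 87937042), the growth hormone-responsive ligand, had 3.92, 5.82, 2.81 and 4.46 CPM in controls. It had 6.84, 5.15, 2.92 and 7.40 CPM in NICD libraries 1, 2, 4 and 5. The ranges overlapped, with library 4 near the lowest control. The log2 fold change was 0.39 (95% interval −0.35 to 1.12, edgeR adjusted p = 0.423), and 0.85 with the length offset (edgeR adjusted p = 0.115). Igf1 overlaps the antisense gene Igf1os, with the same limit on strand. Per kb, Igf1 and Igf2 were at 0.603 ± 0.178 and 0.716 ± 0.243 CPM in controls (± SD, 4 libraries), which did not differ beyond their spread.

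The receptor genes had higher levels per kb than the ligand genes, and their means were lower in β-tetO-NICD islets, though neither passed the threshold. Igf1r (chromosome 7, 67952827 to 68233668), which encodes the tyrosine kinase receptor of IGF-1 and IGF-2, had 119, 79.0, 74.7 and 126 CPM in controls. It had 81.5, 56.6, 61.3 and 51.2 CPM in NICD libraries 1, 2, 4 and 5. Library 1 was within the control range, and the other 3 were below it. The means were 99.5 ± 26.4 and 62.7 ± 13.2 CPM (± SD, 4 libraries per group), a log2 fold change of −0.67 (SE of 0.22, 95% interval −1.16 to −0.17) that did not pass (edgeR adjusted p = 0.0892).

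Insr (chromosome 8, 3122061 to 3279617), which encodes the insulin receptor, had 94.4, 85.2, 58.5 and 86.9 CPM in controls. It had 73.1, 32.1, 43.1 and 39.9 CPM in NICD libraries 1, 2, 4 and 5. Library 1 was again within the control range, and control 3 was the lowest control. The means were 81.2 ± 15.7 and 47.0 ± 18.0 CPM (± SD, 4 libraries per group), with a log2 fold change of −0.79 (SE of 0.26, 95% interval −1.37 to −0.21, edgeR adjusted p = 0.0875). Insr overlaps the antisense gene Gm16180 and the pseudogene Vmn2r-ps88 on the other strand.

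Both receptor transcripts are long, at 11409 bases for Igf1r and 9355 bases for Insr, and their values were set beside the length trend of the libraries. Control 3, with a negative trend, had the lowest Igf1r and Insr of the controls, and NICD library 1, with a positive trend, had the highest of its group. Control 2, also with a positive trend, had Igf1r at 79.0 CPM, near control 3 and below NICD library 1. With the length offset the log2 fold change of Igf1r was −0.0020 (edgeR adjusted p = 0.995) and that of Insr −0.27 (edgeR adjusted p = 0.110). Within the libraries of positive trend the log2 differences were −0.37 for Igf1r and −0.28 for Insr, and within those of negative trend −0.41 and −0.62, where each class holds 1 library of one group. Among all genes over 8 kb, 83.5% had a negative log2 fold change. Without NICD library 1, both genes passed (edgeR adjusted p = 0.0188 for Igf1r and 0.00599 for Insr). In that fit 4954 of 14902 tested genes passed, and every NICD library left had a negative length trend. Insr also passed with the acinar marker score as a covariate (edgeR adjusted p = 0.0356), where 1556 of all genes passed.

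The balance between the receptors was compared by the ratio of Insr to Igf1r counts in each library. It was 0.795, 1.08, 0.782 and 0.692 in controls, and 0.896, 0.567, 0.702 and 0.779 in NICD libraries 1, 2, 4 and 5. The ranges overlapped, and the mean log2 ratio was −0.28 and −0.46, a difference of −0.18 (exact permutation test over 70 arrangements, two-sided p = 0.4, n = 4 per group). Per kb, the receptors were alike within their spread, at 8.72 ± 2.31 CPM for Igf1r and 8.68 ± 1.68 CPM for Insr in controls, and at 5.49 ± 1.16 and 5.03 ± 1.92 CPM in β-tetO-NICD islets (± SD, 4 libraries).

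**Figure D3:**
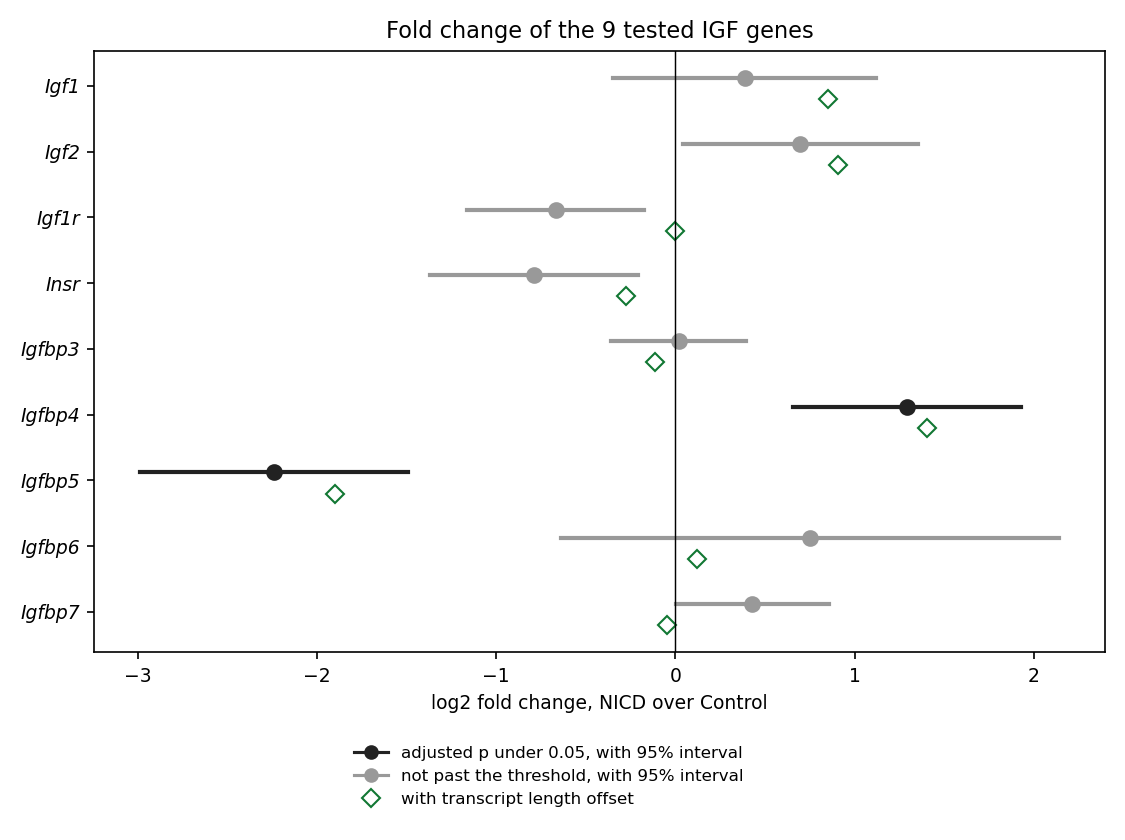
Log2 fold change of the 9 tested genes, β-tetO-NICD over control (n = 4 per group), with 95% intervals from edgeR, black where the adjusted p was under 0.05 and grey elsewhere, and open diamonds for the estimate with an offset for transcript length. Igfbp5 at −2.24 and Igfbp4 at 1.29 keep their place with the offset, at −1.90 and 1.40, while Igf1r moves from −0.67 to −0.0020.

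**Figure D4:**
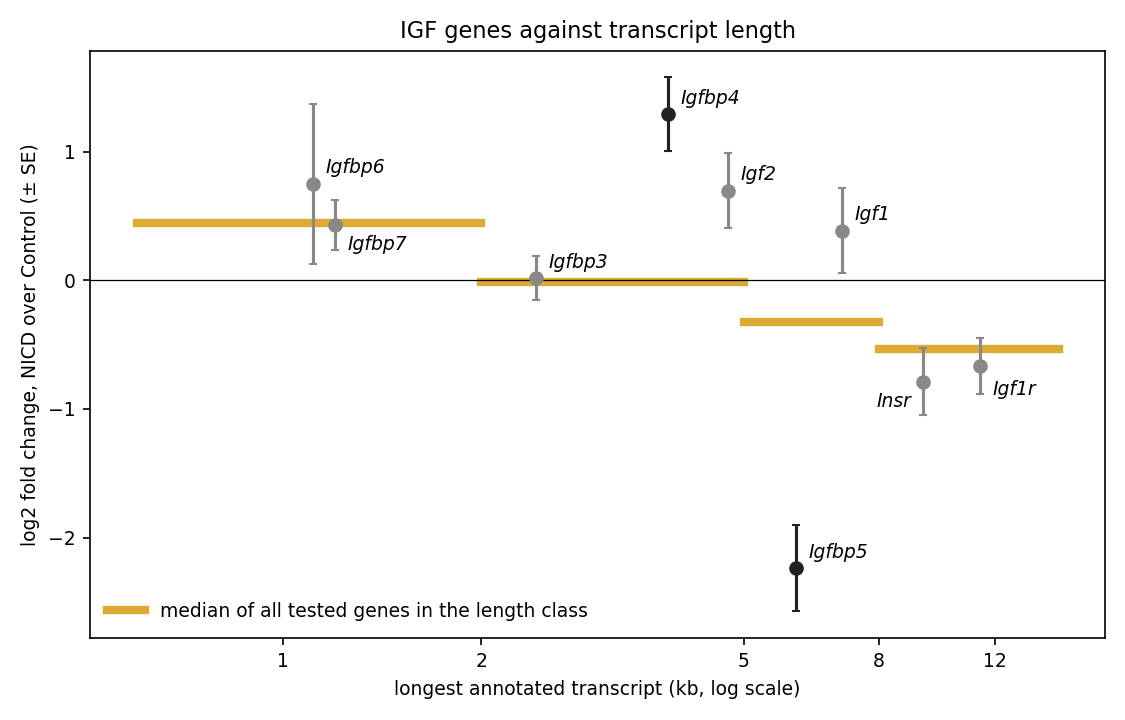
Log2 fold change (± SE) of the same genes against the length of the longest annotated transcript on a log axis, with the median of all tested genes in each length class as yellow bars. Igf1r, Insr, Igfbp3, Igfbp6 and Igfbp7 lie near the bars, which run from 0.45 under 2 kb to −0.53 over 8 kb, while Igfbp5 lies below and Igfbp4, Igf2 and Igf1 above.

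In controls, the order of levels per kb was Igfbp7, Igfbp3, Igfbp5, Igf1r, Insr, Igfbp4, Igfbp6, Igf2, Igf1 and Igfbp2. Igfbp3 (47.7 ± 8.25 CPM per kb) and Igfbp5 (38.5 ± 16.0) did not differ beyond their spread (± SD, 4 libraries), nor did Insr and Igfbp4 (6.51 ± 2.18). In β-tetO-NICD islets, Igfbp4 at 15.9 ± 4.64 CPM per kb came next after Igfbp3, followed by Igfbp5 at 8.16 ± 2.42 and then the receptors (± SD, 4 libraries). By their means these 2 binding proteins exchanged places, but in NICD library 1 Igfbp5 (10.7 CPM per kb) was still above Igfbp4 (9.50). In control 4, Igfbp5 (58.6 CPM per kb) was also above Igfbp3 (36.5), and Igfbp7 was the highest in every library.

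The genes whose pattern over the 8 libraries was nearest to each of the changed binding proteins were found by the root mean square difference of centred log2 CPM. For Igfbp4 these were Gm12216, Glipr2 and Fkbp7, at 0.130, 0.178 and 0.191, where the median of the tested genes was 0.830. For Igfbp5 they were Cttnbp2, Thsd4 and Racgap1, at 0.346, 0.364 and 0.370, with a median of 1.22. Igfbp5 thus had no neighbor as near as those of Igfbp4.

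Other genes of the IGF and insulin pathway were examined as 4 lists holding 57 genes, of which 49 were tested. Of these, 5 passed, 1 higher (Igfbpl1) and 4 lower (10.2%, beside 6.76% of all genes). The median log2 fold change was −0.33, and 35 of the 49 were negative. Among all tested genes, negative estimates made up 50.9% with transcripts of 2 to 5 kb, 76.5% of 5 to 8 kb and 83.5% over 8 kb. Among partners of the IGF system, 2 of 10 tested genes passed, Igfbpl1 and Igfals. Igfbpl1, which encodes a secreted protein with an IGF binding protein-like domain, had 1, 1, 8 and 5 counts in controls and 72, 427, 481 and 243 counts in NICD libraries 1, 2, 4 and 5. It was close to the floor in controls and far above them in every NICD library, though least in library 1. The log2 fold change was 6.29, and the summed counts of 15 and 1223 gave a ratio of 82.7 on the same scale (exact 95% interval 49.9 to 148, counting error only). Igfbpl1 met the count minimum only through the β-tetO-NICD group, so it could only be called higher. Its p is not given, and its call supports nothing about these counts. Its log2 fold change was between 6.00 and 6.91 without 1 control (6.91 without control 3, which held 8 of the 15 counts), and 5.34 with the sign of the length trend.

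Igfals, which encodes the acid-labile subunit that joins IGFs and Igfbp3 or Igfbp5 in a ternary complex, was steady within groups. It had 70.9, 74.5, 78.4 and 74.7 CPM in controls and 32.1, 38.4, 42.5 and 37.4 CPM in NICD libraries 1, 2, 4 and 5. The groups were well apart, and Igfals fell by 0.99 on the log2 scale (SE of 0.13, edgeR adjusted p = 0.00284), passing in all 8 fits with 1 library omitted. Igf2r, the receptor that clears IGF-2, averaged 135 ± 34.2 CPM (controls) and 67.8 ± 24.5 CPM (β-tetO-NICD; ± SD, 4 libraries), which did not pass (log2 fold change −0.99, edgeR adjusted p = 0.0598), and with the length offset it was −0.48 and passed (edgeR adjusted p = 0.0302). Pappa2, a protease that cleaves Igfbp3 and Igfbp5, had 217 ± 29.0 CPM in controls and varied from 97.2 to 463 CPM in β-tetO-NICD islets (log2 fold change −0.017, edgeR adjusted p = 0.983). Its sign changed in 10 of 22 alternatives. Without NICD library 1, the highest, it was −0.72 and passed (edgeR adjusted p = 0.0299), in a fit where 4954 of all genes passed. Insrr, the insulin receptor-related receptor, had a log2 fold change of −0.50 (edgeR adjusted p = 0.284). Igfbp1, a further binding protein gene, had 0 counts in controls and at most 4 in any library.

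Of 8 genes of the growth hormone and prolactin axis, which drives Igf1 in many tissues and β cell growth in pregnancy, 1 passed (12.5%, beside 6.76% of all genes). The growth hormone receptor gene Ghr fell from 180 ± 19.6 to 104 ± 17.8 CPM (± SD, 4 libraries per group), a log2 fold change of −0.80 (SE of 0.16, edgeR adjusted p = 0.0199), and passed in 5 of the 8 fits with 1 library omitted. The prolactin receptor gene Prlr and the feedback inhibitor Cish had log2 fold changes of −0.95 and −0.40 and did not pass (edgeR adjusted p = 0.0644 and 0.133). With the length offset that of Prlr was −0.27 (edgeR adjusted p = 0.414). Prlr passed without control 3 (−1.18, edgeR adjusted p = 0.00714) and without NICD library 1 (−0.98, edgeR adjusted p = 0.0348). In these fits 866 and 4954 of all genes passed.

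Of 28 tested genes of insulin and IGF signalling, 2 passed, both lower. Shc1, an adaptor that links the receptors to Ras, fell from 174 ± 17.4 to 93.9 ± 11.2 CPM (± SD, 4 libraries per group), a log2 fold change of −0.89 (SE of 0.15, edgeR adjusted p = 0.00776), and passed with each library left out. Pik3r3, a regulatory subunit of PI 3-kinase, had a log2 fold change of −1.01 (SE of 0.21, edgeR adjusted p = 0.0224) and passed in 3 of those 8 fits. Akt1, the kinase downstream of PI 3-kinase, had a log2 fold change of −0.48 and did not pass (edgeR adjusted p = 0.133). The 7.14% of this list that passed stands beside 6.76% of all genes.

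A list of 7 other imprinted genes, some neighbors of Igf2 and some on other chromosomes, had 3 genes that could be tested and none that passed by edgeR, with an unadjusted p under 0.05 for 2 of them and for 31.6% of all genes. Cdkn1c, a cell cycle inhibitor, had a log2 fold change of 0.74 (edgeR adjusted p = 0.126). Dlk1, a relative of Notch ligands, had a log2 fold change of −2.07 (edgeR adjusted p = 0.0764), with 2.19 to 14.6 CPM in controls and 0.755 to 4.37 CPM in β-tetO-NICD islets. Plagl1 had a log2 fold change of −0.50 (edgeR adjusted p = 0.313). Without NICD library 1, Dlk1 was at −2.75 and Cdkn1c at 0.92, and both passed (edgeR adjusted p = 0.0114 and 0.0284), in a fit where 4954 of all genes passed. Dlk1 also passed with DESeq2.

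**Figure D5:**
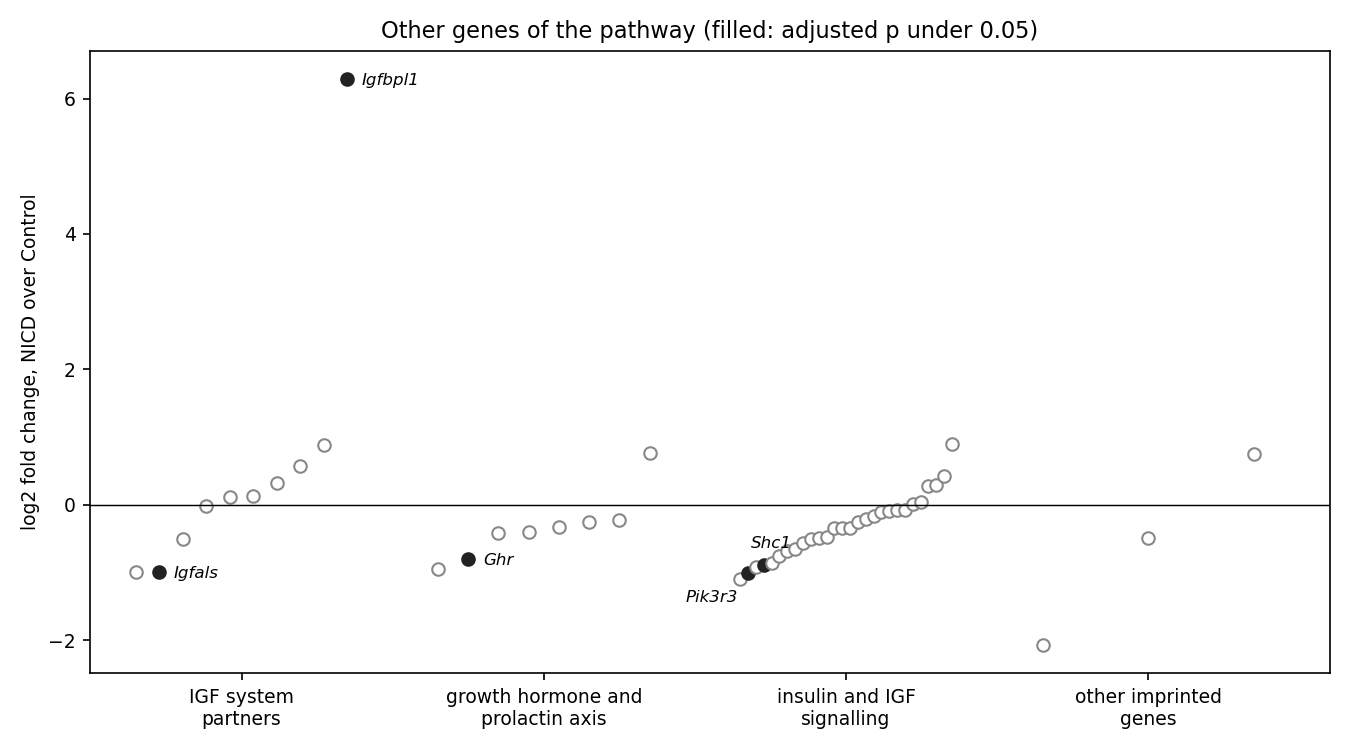
Log2 fold change (β-tetO-NICD over control, n = 4 per group) of the 49 tested genes of 4 pathway lists, sorted within each list, filled and named where the edgeR adjusted p was under 0.05. Igfbpl1 at 6.29 stands apart from the rest, and the other 4 named genes lie between −1.01 and −0.80.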

How the data were processed

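Islet RNA from 4 control and 4 β-tetO-NICD mice was sequenced from stranded, poly(A)-selected libraries. Per the labels and the study's methods, the authors pseudoaligned reads to GRCm38 with kallisto and deposited 1 whole-number count per gene symbol and library. Kallisto estimates counts and shares reads between similar transcripts, and rounding moves low values. No version is given in the sources used here. Each library is a separate mouse per the labels. The 10 genes and all pathway and marker lists were chosen with earlier results of these data known.

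Counts were tested in R 4.3.3 with edgeR 4.0.16 (TMM, glmQLFit, glmQLFTest), keeping 15082 genes with at least 10 counts in 4 libraries. Benjamini-Hochberg adjustment ran over all genes tested (threshold 0.05). CPM are TMM-scaled, and a prior count of 2 was used for log2 CPM. Transcript lengths and positions came from GENCODE M21, with a length for 97.2% of tested genes. A length offset, from a smooth trend fitted in each library, was an alternative. DESeq2 1.42.0, limma 3.58.1 (voom), other scalings and filters, covariates for an acinar marker score and for the presence of Eif2s3y counts, and fits leaving out each library were also run. The sign of the length trend as a covariate and the count ratios were chosen after the values were seen. Named were the 10 genes, in each pathway list every gene past the threshold and the 3 with the highest mean CPM, and the 3 nearest profiles of each called gene, apart from items not reported here. No pair of replicates was alike within counting noise, the lowest chi-square per gene being 31.5. The scripts were tested on simulated data. Without a length trend, 23% of DESeq2 calls were false, above the rate set by the threshold, and 3.94% of edgeR calls. A call by DESeq2 alone thus carries little weight. With a simulated length trend, 9.35% of edgeR calls were false without the length offset and 5.56% with it. Without the offset, 14.1% of simulated log2 changes of 1 were recovered. The main fit has no offset, so its calls share this limit.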

Additional observations from a re-analysis of the deposited data

Results flagged for a closer look

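In 48 groups of 4 libraries, the distance from an extreme library to the next one was divided by the group's range. In 3 groups this passed Dixon's 95% critical value, where chance alone gives about 2.4. Igfbp2 in controls gave 1, since control 1 had 1 count and the others 0. Igfbp6 in β-tetO-NICD islets gave 0.874, with 8.50 CPM in library 5 and at most 3.13 CPM in the others. Insrr in β-tetO-NICD islets gave 0.848, with 215 CPM in library 1 and 104 to 121 CPM in the others.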

How the results depend on the processing

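Of the 9 tested genes, 2 passed as reported, 4 with DESeq2, 1 with the sign of the length trend as a covariate, 0 by edgeR in the 5 libraries without Eif2s3y counts, and between 1 and 5 with each library left out. The 5 were Igf1r, Insr, Igfbp4, Igfbp5 and Igfbp7, without NICD library 1. Of the 49 other pathway genes, 5 passed as reported, 13 with DESeq2, 10 with the acinar score, 0 without Eif2s3y libraries, and 2 (without NICD library 2 or 4) to 21 (without library 1) with each library left out. Over all genes, 1020 passed as reported, 2739 with DESeq2, 1556 with the acinar score, 1535 with the length offset, 608 with the sign of the trend, 116 without Eif2s3y libraries, and 319 (without NICD library 2) to 4954 (without library 1) with each library left out. The share of higher calls was 62% as reported, 51.6% with the acinar score, 48.9% without NICD library 1 and 73.3% without Eif2s3y libraries. Igfbp5 passed in 21 of 22 alternatives and Igfbp4 in 13. The sign turned for Igfbp3 with the length offset (−0.11), the sign of the trend (−0.087) and no Eif2s3y libraries (−0.24), with −0.085 to 0.094 over left-out libraries. It turned for Igfbp7 with the length offset (−0.044). For Pappa2 it turned with upper-quartile scaling (0.044), 10 counts in all 8 libraries (0.0029), the length offset (0.36), the sign of the trend (0.30) and no Eif2s3y libraries (0.25), with −0.72 to 0.23 over left-out libraries. The causes were not tested.

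A replicate block could be fitted only for numbers 1 and 2, in 4 libraries, and the labels do not say that a number pairs mice. Deviations of same-numbered libraries correlated at 0.27 and −0.089. With the replicate block, 1 of the IGF genes (Igfbp5), 3 pathway genes and 610 genes in all passed. The 3 were Igfbpl1 (7.71), Prlr and Dlk1, so Igfals, Ghr, Shc1 and Pik3r3 no longer passed (edgeR adjusted p = 0.0611, 0.473, 0.298 and 0.0839). The sign turned for Igfbp3 (−0.22) and Plagl1 (0.31). Genes near the floor of 3 counts, such as Igfbp2, are limited by depth.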
